A study of Sus scrofa with 15 samples.

Results

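The saline control (CON) group describes the liver of piglets that received no lipopolysaccharide (LPS), the wall component of Gram-negative bacteria that served as the inflammatory challenge of the study. The 3 CON input libraries were taken from the 6 input columns of the count table by the group named in the column header, and they account for 5 of the 15 sample entries because CON replicates 1 and 2 have a pair of entries each. The animals were male piglets in the growing stage, of a Duroc x Large White x Landrace cross, they were given sterile saline by intraperitoneal injection, and liver was taken after the same interval as in the challenged animals. Input RNA is the polyadenylated, fragmented liver RNA set aside before the antibody against N6-methyladenosine (m6A) was added, so it was sequenced as ordinary mRNA. None of the LPS libraries was read for the values given here, and nothing is compared with them. The labels do not say whether the 3 libraries came from separate piglets, and for every gene n = 3, so each SD and coefficient of variation (CV) is the spread between these libraries, which may be technical.

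The liver is built mainly of hepatocytes, which make and secrete most proteins of the blood plasma, dispose of nitrogen as urea, release glucose between meals, form bile acids and convert drugs. Kupffer cells, the resident macrophages, line its blood sinusoids together with fenestrated endothelial cells, and stellate cells, bile duct cells and lymphocytes make up most of the rest. Because plasma proteins are made in bulk, a small set of secretory mRNAs is known to take up much of a liver's mRNA.

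The libraries held 10311658, 5927348 and 10351491 counts in CON replicates 1, 2 and 3, over 31908 genes, of which 15029 are paired with a gene symbol. Replicate 2 was the shallowest, and a gene with 0 counts there could still hold up to 0.506 CPM (counts per 1000000 counts of the library), against 0.291 and 0.290 CPM in replicates 1 and 3. These limits, and the intervals given for shares of counts, cover counting error only. Levels are compared between genes only as TPM (transcripts per 1000000), which divides counts by the gene's length, and 1 gene is compared between libraries as CPM. In replicate 3 the most abundant gene took 12.0% of all counts, which lowers the TPM and CPM of every other gene of that library. Scaling by trimmed mean of M values (TMM), which sets the bulk of genes equal, multiplied the library sizes by 1.05, 1.02 and 0.927, so counts of genes highest in each library are given under both scalings. Counts differed between each pair of libraries by far more than counting error, with a chi-square per gene of 56.9 to 96.4, so none of them is a copy of another.

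A mean level of at least 1 TPM was reached by 12318 genes (38.6% of the table), with 11358 to 12507 genes in single libraries and 10770 genes in all of them. At 10 TPM 5191 genes were left, at 100 TPM 685, at 1000 TPM 82, and 8 genes lay above 10000 TPM. At the other end, 10312 genes had 0 counts in every library, 1498 of them with a symbol. The summed depth of the libraries puts the limit for such a gene at 0.113 CPM. Among the genes with a symbol 67.7% reached 1 TPM, and this share is the background for the gene groups below. The transcript pool was steeply weighted to its top, and 13 genes held 50% of all TPM, 192 genes 75% and 1738 genes 90%. Without the first gene, 42 genes held 50%, and on the CPM scale, where long genes weigh more, 100 genes did. The number also depended on single libraries, being 22 genes without replicate 3 and 7 without replicate 2. The 10 most abundant genes took 45.4%, 39.9% and 61.3% of TPM in replicates 1, 2 and 3, and 25.2%, 24.4% and 30.1% of counts. The 100 most abundant genes by TPM had a median length of 1631 bases, against 4173 bases over the 11658 genes used for the spread below. Because TPM divides by length, this ranking itself favours short genes, so the difference does not show that abundant genes are short.

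**Figure D1:**
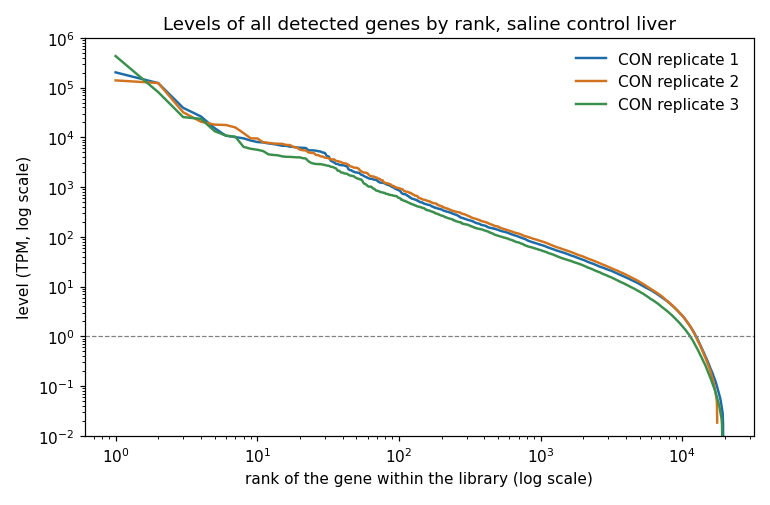
Level of each detected gene (TPM, log scale) against its rank within the library (log scale), with one line per CON library and a dashed line at 1 TPM. The first 2 genes stand above the rest in every library, replicate 3 starts highest, and between 11358 and 12507 genes lie above the dashed line.

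The most abundant gene of these livers carries no symbol. ENSSSCG00000024911, 423 bases in 3 exon blocks at chr6:18651012-18652323, starts after the metallothionein gene MT1X and lies within the span of MT3, another one, and metallothioneins are small cysteine-rich proteins that bind zinc and copper. Its level was 202496, 123673 and 430546 TPM, and it took 4.34% (95% Wilson interval 4.32% to 4.35%), 2.41% (2.39% to 2.42%) and 12.0% (12.0% to 12.1%) of counts. Replicate 3 was far above the other two. In CPM the gene measured 43373, 24064 and 120490.0, with a CV of 81.4% under total counts and 87.9% under TMM. MT1X itself, at chr6:18645059-18646033, ranked next after APOA1 with 39167, 12185 and 25523 TPM and was highest in replicate 1, and replicate 2 was lowest for both genes. Its exons overlap those of MT3, which was at 1940.0, 3599 and 2455 TPM, so reads may have been split between them. A pair of unnamed genes beyond it, ENSSSCG00000023684 and ENSSSCG00000023305, lay at 4446 ± 1372 and 2246 ± 881 TPM (mean ± SD, n = 3, as in all that follows) and overlap each other. The same stretch of chromosome 6 therefore held 5 genes of 2246 TPM or more. The whole of chromosome 6 took 35.7% of TPM, and 14.2% without its first gene.

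ENSSSCG00000048719, 1036 bases in 3 exon blocks at chr4:53952716-53953839 after RALYL and before SNX16 by start position, was second with 123153, 139680.0 and 80976 TPM. It was the first gene in replicate 2 and the second in replicates 1 and 3. Its share of counts was 6.46%, 6.66% and 5.55%, and its CV was 9.49% under total counts and 4.30% under TMM, so it was even between libraries. These first 2 genes together held 36.7% of TPM. They stood apart from the rest, since the lowest library of the second gene (80976 TPM) was above the highest library of the third (31936 TPM). Of the 25 steps between neighbours from the first gene to the 26th this was the single one without overlap. In the other 24 the ranges of the neighbours overlapped, so their order is not resolved by these ranges. The ranges do not compare genes within a library. APOE and ENSSSCG00000014540, for example, overlapped in range, but APOE was the higher in every library.

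**Figure D2:**
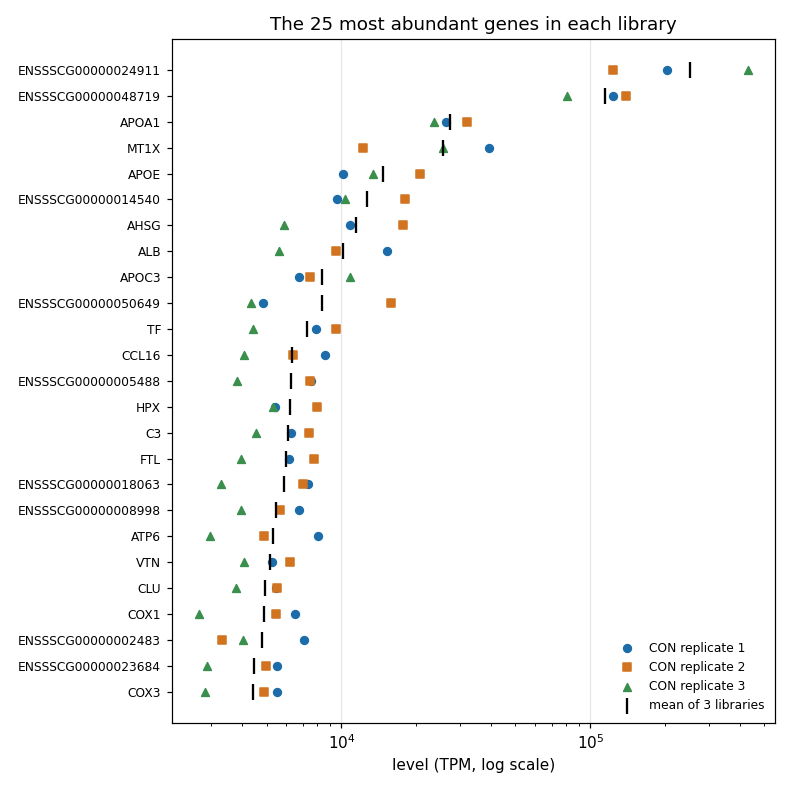
Level of the 25 most abundant genes (TPM, log scale) in CON replicates 1, 2 and 3, with a black bar at the mean. ENSSSCG00000024911 and ENSSSCG00000048719 lie to the right of all others, and replicate 3 is the lowest point for most of the remaining genes.

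Below that pair came APOA1, the main protein of high-density lipoprotein, at 26345, 31936 and 23542 TPM, followed by MT1X and then by APOE, a ligand of lipoprotein receptors, at 10125, 20638 and 13335 TPM. ENSSSCG00000014540, an unnamed gene at chr2:9535148-9537977 after INCENP and before BEST1, was sixth at 12625 ± 4683 TPM. AHSG (fetuin-A, a carrier that keeps calcium phosphate in solution) measured 10799.9, 17729 and 5889 TPM. ALB, the albumin gene, was eighth by TPM at 15314, 9538 and 5638, and by CPM, where its length of 5319 bases counts, it ranked 3. Albumin was thus behind the leading pair of genes on both scales. APOC3, an inhibitor of lipoprotein lipase, lay at 6765, 7509 and 10847 TPM. The unnamed ENSSSCG00000050649 (chr2:1381838-1384446, after PRR33 and before INS) was at 4862, 15820.5 and 4349 TPM, and in CPM at 5500.2, 16257 and 6428, with replicate 2 the highest. The iron carrier TF, the chemokine CCL16, the unnamed ENSSSCG00000005488 (chr1:254939149-254943063, overlapping AKNA) and the heme scavenger HPX followed with 7282 ± 2602, 6357 ± 2279, 6280.5 ± 2142 and 6221 ± 1516 TPM. CCL16 ranked 12th by TPM and 81st by CPM, since its gene is short.

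Of the 25 leading genes, 10 belong to the plasma protein lists below, 4 to the mitochondrial genome and 8 further genes have no symbol, while the remaining 3 are MT1X, CCL16 and FTL, the light chain of the iron store ferritin, at 5971 ± 1908 TPM. Among the 100 leading genes the plasma protein lists had 32, cytosolic ribosomal proteins 10, the mitochondrial genome 12, genes without a symbol 22 and all others 24. The leading set was largely shared, with 18 genes among the first 25 and 83 among the first 100 of every library. Genes without a symbol held 48.8% ± 9.94 of TPM and 27.1% ± 3.52 of counts, most of the first share being the leading pair. Exons of 10 of the 25 genes overlap another gene, and how reads were shared out between overlapping genes remains not given in the sources used here, so levels of such genes are uncertain. Among the genes with a symbol described here this applies to ACSL1, AGPAT2, ARG2, ATF5, ATP6, ATP8, CAT, CFD, CIDEB, CKM, COX3, CPS1, CYP1A2, CYP2E1, DCTN4, ECHS1, ENG, EPHX1, FTL, GAPDH, HBB, ITIH4, JCHAIN, JUNB, KIF7, LEAP2, LYZ, MAT2A, MDK, METTL3, MRPL2, MT1X, MT3, MYD88, NFKBIB, NOD1, NOS2, RPLP2, RPS18, SERPINA1, SLC51B, SOD1, THRSP, TLR2, TPT1, VTN and ZFP36.

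The 5 lists of plasma proteins, 112 genes in all, took 15.7% ± 2.97 of TPM, with 16.3%, 18.4% and 12.5% in replicates 1, 2 and 3, and 106 of them reached 1 TPM. Carrier and other plasma proteins were all present, with 27 of 27 genes at 1 TPM or more and a median of 578 TPM, and took 5.76% ± 1.77 of TPM (9.93% of counts). After AHSG, ALB, TF and HPX the fifth of them was VTN (vitronectin, an adhesive plasma protein), which at 5262, 6235 and 4066 TPM and 7517, 8091 and 7588 CPM had a CV of 4.04%. The widest member, meaning here and in the other lists the one with the largest ratio of highest to lowest CPM among members of at least 5 TPM, was the antimicrobial peptide gene LEAP2, at 11, 6.92 and 21.4 CPM.

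Apolipoproteins and other lipoprotein genes took 5.93% ± 0.717 of TPM, and 17 of 19 reached 1 TPM. After APOA1, APOE and APOC3 came APOH, which binds phospholipids, at 4959, 4114 and 2132 TPM. APOA4, made with chylomicrons and lying at chr9:44201508-44204206 on the other strand within the span of APOC3, was the widest at 2278, 816 and 6579 CPM. Its neighbours did not share this width, since APOA1 measured 17356, 19112 and 20263 CPM and APOC3 3857, 3889 and 8081 CPM. Replicate 3 was the highest for each of these 3 neighbouring genes in CPM.

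Coagulation and fibrinolysis genes took 2.45% ± 0.733 of TPM (3.97% of counts) and 29 of 30 reached 1 TPM. HRG, a histidine-rich regulator of clotting, led at 6421, 4412 and 2368 TPM. The fibrinogen chain gene FGB measured 5185, 3618 and 2544 TPM and FGG, another fibrinogen chain, 3252, 1978 and 1149 TPM. The unnamed ENSSSCG00000008998, which lies at chr8:74574882-74584202, within the span of FGG as FGB does, measured 6764, 5678 and 3964 TPM. All 3 genes of this stretch were highest in replicate 1. SERPINC1 (antithrombin, which inhibits thrombin) was at 2439.8 ± 828 TPM and F10 (factor X, which activates prothrombin) at 1662 ± 332 TPM. The widest was F13A1, a subunit of the factor that cross-links fibrin and a product of macrophages and platelets rather than hepatocytes, at 17.9, 3.04 and 17.4 CPM.

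Complement genes took 1.9% ± 0.344 of TPM (3.45% of counts), and 27 of 27 reached 1 TPM. C3 was at 6261, 7412 and 4551 TPM with a CV of 6.28%, CLU (clusterin, an inhibitor of the terminal complex) at 4914 ± 998 TPM and SERPING1 (the inhibitor of C1) at 3103 ± 465 TPM. All 3 were even, CLU having a CV of 5.79% and SERPING1 of 6.05%, and C4A and C1QC were at 775 ± 191 and 775 ± 172 TPM. MBL2, the lectin that binds microbial mannose and starts the lectin pathway, was by contrast at 30.0, 112 and 14.6 CPM, a ratio of 7.70 between the highest and lowest library. FCN2, a ficolin that starts the same pathway, was at 18.7, 22.8 and 140.0 CPM. MBL2 was highest in replicate 2 and FCN2 in replicate 3.

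Acute-phase genes, which the liver makes in larger amounts during inflammation, took 1.41% ± 0.278 of TPM (2.48% of counts), with 12 of 15 of those paired at 1 TPM or more. Besides HPX, FGB and FGG, which also stand in other lists, ITIH4 (the major acute-phase protein of the pig) was at 589, 589.8 and 555 TPM and CD14, a co-receptor for LPS, at 353, 611 and 386 TPM. CRP, the C-reactive protein gene, had 49.4, 12.6 and 42.2 TPM and 244, 56.5 and 273 CPM, with replicate 2 well below the other two. The serum amyloid A genes and haptoglobin are not paired with an identifier and were not analysed here.

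Genes of nitrogen disposal were clearly present. In the urea cycle and glutamine list 12 of 13 reached 1 TPM, led by ASS1 (which joins citrulline to aspartate) at 315, 674 and 313 TPM and CPS1 (which makes carbamoyl phosphate from ammonia) at 232, 476 and 141 TPM. ASL and ARG1, the next enzymes of the cycle, lay at 245 ± 84.1 and 145 ± 40.8 TPM, and GLUD1, which frees ammonia from glutamate, at 158 ± 52.9 TPM. ARG2, the mitochondrial arginase, was the widest at 2.91, 5.06 and 8.21 CPM. Both ASS1 and CPS1 were highest in replicate 2. For amino acid and one-carbon breakdown 50 of 51 reached 1 TPM. HPD, an enzyme of tyrosine breakdown, led at 564, 801 and 788 TPM, followed by MAT1A (the liver form of methionine adenosyltransferase) at 454 ± 221 TPM, TAT (tyrosine aminotransferase) at 380.3 ± 259 TPM and FTCD and AGXT at 352 ± 177 and 335 ± 165 TPM. The widest was GPT2, a mitochondrial alanine aminotransferase, at 173, 659 and 164 CPM.

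Genes of glucose release led their list. Among the glycolysis, gluconeogenesis and glycogen genes, with 32 of 36 at 1 TPM or more, the first 5 were PCK1, G6PC1, FBP1, PC and PCK2, which all serve gluconeogenesis. PCK1, which makes phosphoenolpyruvate, was at 1180.4, 2396 and 848 TPM and G6PC1, which frees glucose from its phosphate, at 930.0, 883 and 664 TPM. FBP1, PC and PCK2 were at 643 ± 282, 529 ± 211 and 527 ± 244 TPM. Only G6PC1 of these 5 was not highest in replicate 2, and its CPM of 1842, 1588 and 1719.6 differed little between libraries. GYG2, the liver primer of glycogen, was the widest at 11.8, 24.5 and 8.98 CPM.

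Fat metabolism genes were at middle levels, the median being 18.0 TPM for synthesis, 37.1 TPM for oxidation and 26.2 TPM for cholesterol synthesis. ACSL1, which activates long-chain fatty acids, was at 477, 313 and 326 TPM, and the lipid droplet genes CIDEB and PLIN2 at 123 ± 17.2 and 95.5 ± 15.4 TPM, with AGPAT2, an enzyme of triglyceride assembly, at 113 ± 26 TPM. THRSP, a regulator of lipogenesis, was the widest of its list at 19.1, 7.93 and 33.4 CPM. In the oxidation list the peroxisomal catalase CAT led at 603 ± 204 TPM and ECHS1 (enoyl-CoA hydratase) followed at 323 ± 151 TPM. Among the cholesterol genes, all 26 of 26 reached 1 TPM. EBP, a sterol isomerase, led at 82.7 ± 6.43 TPM. INSIG1, the sterol-regulated brake on SREBP processing, was the widest at 268, 372 and 127 CPM.

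Bile acid genes reached 1 TPM in 20 of 23 cases. CYP27A1, the sterol 27-hydroxylase, was at 215, 259 and 224 TPM and AKR1D1, which reduces the steroid ring, at 235, 272 and 109 TPM. HSD3B7 was steady at 112 ± 9.05 TPM. The transporter subunit SLC51B was the widest at 5.62, 0.169 and 1.93 CPM, where the value in replicate 2 stands on a single count. Of the drug metabolism genes 42 of 46 reached 1 TPM, with a median of 88.9 TPM. The epoxide hydrolase EPHX1 led at 973, 1199 and 852 TPM, ahead of CYP2D6 and CYP2E1 at 553 ± 109 and 531 ± 115 TPM. CYP2A19, a porcine P450 that oxidises skatole, was the widest at 56.1, 44.2 and 241 CPM and was highest in replicate 3. P450 genes have close relatives, and reads that map to several of them may have been split or lost.

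Transcription factors lay far below secretory genes, at a median of 19.6 TPM, and 44 of 47 reached 1 TPM. ATF5, a stress-linked factor abundant in liver, stood above the others at 1746, 3911 and 1847 TPM. CEBPD and CEBPB, both of which answer acute-phase signals, were at 456 ± 190.0 and 266 ± 135 TPM, CREB3L3, a membrane-bound factor of fasting, at 346 ± 65.9 TPM and HNF4A, a master regulator of hepatocyte genes, at 114, 88.3 and 151 TPM. KLF15, which drives amino acid breakdown in fasting, was the widest at 90.3, 192 and 62.2 CPM. In the growth hormone and IGF list 21 of 25 reached 1 TPM. IGFBP1, a binding protein that insulin represses, was both the most abundant and the widest at 2189, 7055 and 730.4 TPM and 928, 2716 and 404 CPM. IGFBP2, another binding protein of the growth factors, measured 1075, 3263 and 1020.3 TPM and the glucagon receptor GCGR 117, 223 and 107 TPM. These 3 genes were highest in replicate 2. Clock genes were low, at a median of 5.22 TPM, with NFIL3 at 49.7 ± 17.2 TPM and PER1 at 59.7, 133 and 126 CPM.

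Immediate early genes, which are switched on within minutes of a stimulus, were present in the saline livers, and 26 of 29 reached 1 TPM at a median of 12.9 TPM. JUNB, a subunit of AP-1, was at 40.9, 124 and 35.2 TPM and EGR1, a zinc finger factor, at 40.9, 97.9 and 13.4 TPM. DUSP1, a phosphatase of MAP kinases, and ZFP36, a protein that speeds the decay of cytokine mRNAs, were at 41.2 ± 14.3 and 38.3 ± 12.8 TPM. Both JUNB and EGR1 were highest in replicate 2, and EGR1 was the widest of the list at 64.3, 139.7 and 27.4 CPM. Cell cycle genes were low but present, all 28 of 28 at 1 TPM or more with a median of 8.89 TPM. CCND1, the cyclin of G1, led at 56.2 ± 14.5 TPM, and TOP2A, a topoisomerase of dividing cells, was the widest at 46.0, 31.4 and 18.6 CPM. Of the fetal liver list 7 of 10 reached 1 TPM. AMBP, the precursor of bikunin and also an adult plasma protein, was at 2988 ± 550.2 TPM, the growth factor MDK at 245 ± 119 TPM and the surface proteoglycan GPC3 at 182, 344 and 121 TPM. Of iron, metal and antioxidant genes 37 of 38 reached 1 TPM, and after TF, FTL, MT3 and CAT the superoxide dismutase SOD1 lay at 431 ± 14.5 TPM, with GCLC, an enzyme of glutathione synthesis, as the widest at 147, 159.9 and 48.3 CPM. The Y-linked genes EIF1AY and KDM5D had 194, 45 and 61 and 27, 7 and 49 counts, so the male label was met in every library.

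The mitochondrial genome took 2.75% (95% Wilson interval 2.74% to 2.76%), 1.86% (1.85% to 1.87%) and 1.45% (1.45% to 1.46%) of counts in replicates 1, 2 and 3, and 3.60% ± 1.57 of TPM. These shares describe polyadenylated RNA only. ENSSSCG00000018063, at chrMT:2274-3844 with ND1 as the next named gene, was the first of these genes at 7325, 7004 and 3297 TPM. The proton channel subunit ATP6 was at 8061, 4877 and 2967 TPM, and the cytochrome oxidase subunits COX1, COX2 and COX3 were at 4878 ± 1968, 3547 ± 2436 and 4401 ± 1389.6 TPM. ATP8, which overlaps ATP6, had 41, 2 and 1 counts, so its place among the widest genes rests on few reads. Nuclear respiratory chain genes (63 of 67 at 1 TPM or more) had a median of 45.5 TPM, and COX7C was the widest at 491, 133 and 131 CPM. Cytosolic ribosomal protein genes took 2.48% ± 0.552 of TPM at a median of 324 TPM, and were among the more even groups with a median CV of 16.6%. RPLP1 and RPLP2, the acidic stalk proteins, were the highest at 3204 ± 1128 and 2725 ± 466 TPM. Chaperones of the endoplasmic reticulum led the heat shock and chaperone list, with P4HB (protein disulfide isomerase) at 2105 ± 385 TPM, CALR at 698 ± 182 TPM and HSP90B1 at 859, 471 and 413 TPM.

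Genes often used as qPCR references were more even than most groups, with a median CV of 16.2% over the 16 genes of the spread set defined below. A CV above 50% was found in 0 of 16, against 8.9% of all genes and 4.89% of genes near the list's median level. So 0 of 16 lies near the share at that level. GAPDH, below 1 TPM, is not among the 16. ACTB, the cytoskeletal actin, was at 563, 679.7 and 540.5 TPM and 1507, 1652 and 1889 CPM. TPT1, RPLP0, RPS18 and EEF2 were above it, and YWHAZ was the widest of the list at 74.8, 39.8 and 35.8 CPM. The identifier paired with GAPDH, the glycolytic enzyme, had 2, 2 and 7 counts, or 0.383 ± 0.172 TPM, and its exons overlap ENSSSCG00000050094. That level is far below those of the other reference genes.

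The study followed the NOD1 and NF-kB pathway and the m6A machinery, and of 26 paired genes taken from those it names 22 reached 1 TPM here. TNF and IL1B are not paired with an identifier and were not analysed here. The intracellular receptor of bacterial peptidoglycan NOD1 was at 3.48, 3.33 and 4.29 TPM and its partner kinase RIPK2 at 6.73, 6.52 and 5.26 TPM. Their downstream factor RELA, the p65 subunit of NF-kB, was at 70.6, 81.4 and 62.7 TPM. The inhibitors lay higher than the receptor, NFKBIA at 67.2, 102 and 65.3 TPM and NFKBIB at 20.9, 25.7 and 22.9 TPM, and TNFAIP3, a ubiquitin-editing brake, was at 9.79, 13.1 and 5.51 TPM. The LPS receptor TLR4 had 2.72, 1.94 and 2.22 TPM, its adaptor MYD88 8.61, 9.10 and 7.17 TPM and TLR2 3.81, 4.68 and 3.58 TPM. Receptors were thus low while CD14 and the LPS-binding protein LBP, at 465, 204 and 288 TPM, were high. LBP was the widest of the 42 paired genes of LPS sensing and NF-kB, 557, 222 and 451 CPM, and TOLLIP, an inhibitor of Toll-like receptor signaling, was at 246, 580.0 and 249 TPM.

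Most m6A genes were at low levels, and 26 of 27 reached 1 TPM at a median of 7.12 TPM. The methyltransferase METTL3 was at 5.47, 3.80 and 3.63 TPM, the demethylase FTO at 8.34, 7.89 and 4.79 TPM and the demethylase ALKBH5 at 26.7, 55.7 and 25.7 TPM. The cytoplasmic readers YTHDF1 and YTHDF2 were at 15.1 ± 1.9 and 7.18 ± 1.37 TPM. HNRNPA2B1, a nuclear RNA-binding protein, led the list at 233, 142 and 84.6 TPM, and the nuclear reader YTHDC1 was second at 59.8 ± 20.9 TPM. HIF1A, the oxygen-regulated factor that the list includes, was its widest member at 28.1, 18.2 and 10.3 CPM. MAT2A, an enzyme that makes the methyl donor, was at 10.1 ± 3.62 TPM against 454 TPM for MAT1A. HIF1A was highest in replicate 1 and lowest in replicate 3.

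The paired interleukin genes IL6, IL4 and IL10 were low in the saline livers. IL6 had 2, 0 and 1 counts, IL4 had 0 counts in every library, and IL10 was at 1.49, 2.42 and 3.07 TPM. NOS2 and the decoy receptor IL1R2 were at 1.10 ± 0.701 and 0.235 ± 0.0641 TPM. The chemokines CCL16, CXCL10 and CCL5 were higher at 6357, 284 ± 99.3 and 229.6 ± 15.2 TPM. Cytokine receptors were present, with IL4R at 40.6 ± 8.77 TPM, IFNAR1 at 18.8 ± 4.20 TPM, TNFRSF1A at 87.6 ± 10.4 TPM and IL1R1 at 57.5 ± 17.3 TPM. CCL3L1, a macrophage chemokine, was the widest of the list at 4.75, 19.7 and 8.31 CPM. Interferon-stimulated genes were all measured at 1 TPM or more (29 of 29), with IFI6 at 1608, 2650.4 and 2916 TPM, the ubiquitin-like ISG15 at 183, 113 and 332 TPM and the antiviral GTPase MX1 at 264, 103 and 213 TPM. Their median CV was 42.7%, against 24.6% over all genes of the spread set defined below. ISG15, MX1 and OAS2 were each lowest in replicate 2, OAS2 at 324, 86.9 and 279 CPM, while IFI6 was lowest in replicate 1.

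The labelled tissue was checked against markers of liver cell types and of other tissues. All 15 of 15 paired hepatocyte markers reached 1 TPM, with a median of 380.3 TPM, and they included albumin, transferrin, APOA1 and the fibrinogen chain FGB. SERPINA1, singled out after its value was seen, was the lowest of them at 1.05 ± 0.132 TPM, while an unnamed gene after SERPINA5 and before GSC on chromosome 7, ENSSSCG00000002483, was at 4799 ± 1996 TPM. Genes known to be higher in periportal hepatocytes had a median of 195 TPM and those known for pericentral hepatocytes 19.6 TPM. These lists differ in what their genes do and in base level, so the medians say nothing on the share of each zone. CYP2E1 led the pericentral list, and CYP1A2, a P450 of caffeine oxidation, was at 111, 279 and 157 TPM. NOTUM, an inhibitor of Wnt ligands, was at 63.5, 157 and 74.0 TPM, and like CYP1A2 it was highest in replicate 2.

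Kupffer cell or macrophage markers came next, 15 of 16 at 1 TPM or more with a median of 61.9 TPM. The complement subunits C1QA, C1QB and C1QC were at 441 ± 61.7, 511 ± 72.9 and 775 ± 172 TPM and the scavenger receptor MARCO at 114, 75.3 and 151 TPM. The mannose receptor MRC1, highest in replicate 1, was at 15.9, 15 and 8.63 TPM, and LYZ was listed at 0 counts. The costimulator CD86, which is not in the marker list, was at 6.07, 3.82 and 3.95 TPM. Over the 15 macrophage markers of the spread set, the numbers highest in replicates 1, 2 and 3 were 5, 1 and 9 under total counts. Under TMM they were 4, 0 and 11. Of all genes, 20.6% were highest in replicate 3 under total counts and 31.7% under TMM. In bulk tissue, fewer cells of a type and less RNA per cell cannot be told apart. Endothelial markers had a median of 12.9 TPM, and their leading gene CLEC4G, a lectin of sinusoidal endothelium, was far from even at 16.5, 27.0 and 254 CPM. FCN2 was likewise highest in replicate 3. The general endothelial genes ENG and CDH5 were highest in replicate 2 under both scalings. ENG was at 215, 237 and 194 CPM and CDH5 at 54.8, 69.5 and 47.4 CPM. Over the 14 endothelial markers of the spread set defined below there was no lean to 1 library. The numbers highest in replicates 1, 2 and 3 were 4, 5 and 5 under both scalings. Stellate cell or fibroblast markers had a median of 15 TPM, with the collagens COL1A1 and COL3A1 at 169.6 ± 56.6 and 129 ± 62.9 TPM and the smooth muscle actin ACTA2 at 46.1, 19.9 and 40.7 TPM.

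Bile duct, lymphocyte and neutrophil markers were low. The medians were 1.20 TPM for cholangiocytes, 6.74 TPM for T or NK cells, 1.59 TPM for B or plasma cells and 2.10 TPM for neutrophils. Among the T or NK cell genes NKG7, a granule protein, was at 29.9 ± 6.09 TPM and the kinase LCK at 21.6 ± 5.40 TPM. Plasma cell genes were uneven, MZB1 (an aid to antibody folding) at 5.14, 11.3 and 31.4 CPM and JCHAIN (the joining chain of secreted antibodies) at 13.4, 16.0 and 52.5 CPM, both highest in replicate 3. Red blood cell RNA was limited, HBB being at 117, 141 and 92.6 TPM, and its CPM of 56.9, 61.9 and 58.6 was even. S100A12, a neutrophil protein, was at 5.72, 0.844 and 3.67 CPM.

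Markers of 7 other tissues gave 46 paired genes, of which 36 lay below 1 TPM and 13 had 0 counts in every library. All 7 paired pancreas genes and all 8 kidney genes were below 1 TPM, and PNLIP, SST, SI, ADIPOQ and LEP were listed at 0 counts. The exceptions were SCGB1A1, VIL1, TNNI2, CFD, PLIN1 and 5 brain genes, of which MBP was the highest at 8.58 ± 2.08 TPM. SCGB1A1, the secretory protein of airway club cells, had 212, 0 and 333 counts, so it was detected in replicates 1 and 3 and not in replicate 2, where the limit was 0.506 CPM. The lung surfactant gene SFTPC and the airway factor FOXJ1 were at 0.95 ± 0.983 and 0.583 ± 0.0660 TPM. VIL1 (villin, also known in bile canaliculi) measured 19.5, 9.11 and 8.55 TPM and the fast muscle troponin TNNI2 6.88, 25.6 and 5.71 TPM, while CKM and ACTA1 of muscle were at 0.0580 ± 0.0570 and 0.0162 ± 0.0281 TPM.

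**Figure D3:**
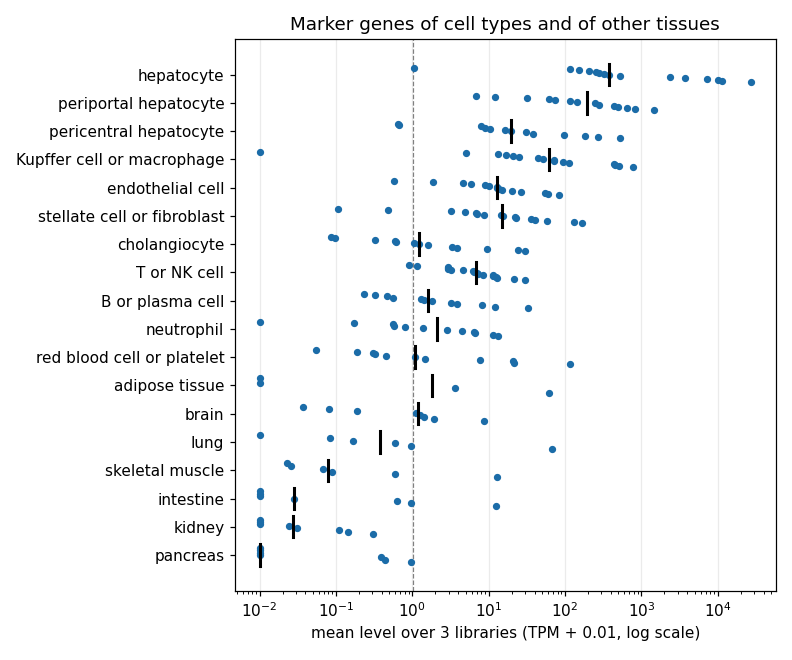
Mean level over the 3 CON libraries (TPM plus 0.01, log scale) of each paired marker gene, one row per cell type or tissue, with a black bar at the list's median and a dashed line at 1 TPM. The hepatocyte and periportal lists lie highest, Kupffer cell markers have a median of 61.9 TPM, and pancreas, kidney, intestine and muscle lists have medians near 0.

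Spread between the libraries was measured on 11658 genes with a mean of at least 1 TPM and 10 counts, which leaves out low genes whose spread is mostly counting error. The median CV was 24.6%, with quartiles of 15.8% and 35.7%, and 23.9% under TMM. Counting error alone gives a median of 8.23%, so most of the spread was not from counting. A CV above 50% was found for 1038 genes (8.9%), or 965 genes (8.28%) under TMM, and a CV under 10% for 1255 genes. The highest library was more than 2 times the lowest for 2892 genes and more than 5 times for 205. The biological coefficient of variation, the spread beyond counting error that edgeR estimates in common for 12211 genes, was 0.277. From DESeq2, the square root of the median dispersion of single genes was 0.287.

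The CV went down with level and then levelled off. Across 10 equal groups of genes ordered by level, from the lowest (median level 1.34 TPM) to the highest (118 TPM), the median CV went from 33.6% to 21.0%, while the counting part went from 18.6% to 2.71%. In groups 7 to 10 the median CV stayed between 21.0% and 21.8%. The lowest group had 22.0% of its genes above a CV of 50%, and the highest 6.78%.

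**Figure D4:**
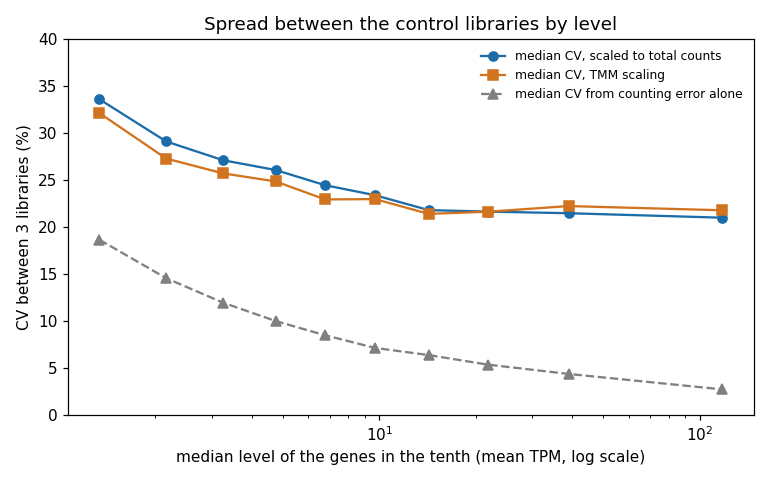
Median CV between the 3 CON libraries (%) of genes in 10 equal groups by level against the median level of the group (mean TPM, log scale), under total counts and TMM, with the part that counting error gives as a dashed line. The observed CV levels off at 21.0% to 22.2% in the 4 highest groups while the counting part goes down to 2.71%.

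Gene groups differed in how many of their members were uneven. A CV above 50% was found in 8 of 26 immediate early genes, 7 of 32 fat synthesis genes, 9 of 50 amino acid breakdown genes and 4 of 7 B or plasma cell markers, to be read against the background of 8.9% of all genes. It was found in 0 of 26 cholesterol synthesis genes, 0 of 28 cell cycle genes and 0 of 44 ribosomal protein genes. The background share differs with level, being 22.0% in the lowest of the 10 equal groups, 3.60% in group 8 and 6.78% in the highest. In the equal groups by level that hold the medians of these lists it was 3.60%, 5.15% and 6.78%. So 0 of 26 or 0 of 28 genes lies near the share at that level. For the immediate early, fat synthesis and amino acid breakdown lists it was 5.67%, 3.60% and 4.89%. For the B or plasma cell markers, whose median lies in the lowest group, it was 22.0%. The acute-phase list had a median CV of 41.8% over 11 genes and the plasma carriers 19.9% over 27.

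Among genes with a symbol and at least 10 TPM, 4516 in all, the 15 with the largest ratio between libraries were chosen for that ratio and are given as a description. SCGB1A1, at 0 counts in replicate 2, came first, and ATP8, SNORA51 and ssc-let-7d had at most 41 counts in any library, the last pair being genes of under 200 bases that a polyadenylated library holds poorly. CST6, a cystatin that inhibits cysteine proteases, was at 0.679, 14.2 and 3.09 CPM and the hormone gene SCT at 1.07, 9.95 and 3.38 CPM, both highest in replicate 2. CLEC4G, FCN2, APOA4, MFSD2A and ETNPPL were highest in replicate 3. MFSD2A, a transporter of lysolipids with omega-3 fatty acids, measured 22.5, 4.72 and 57.0 CPM and ETNPPL, which breaks down phosphoethanolamine, 46.1, 18.4 and 126 CPM. MBL2, ENHO and FST were highest in replicate 2, with ENHO (the adropin precursor) at 3.30, 15 and 2.03 CPM and FST (follistatin, which binds activin) at 5.82, 24.6 and 3.57 CPM. The chemokine CCL19 was at 44.3, 7.25 and 49.8 CPM. The 15 genes did not share 1 highest library.

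The 10 genes with the smallest CV were EPB41, DCTN4, PPP1R11, HS1BP3, ROMO1, MRPL2, ABCF1, KIF7, NDUFA6 and UQCC4. EPB41, a protein of the membrane skeleton, measured 69.9, 69.8 and 69.7 CPM and ROMO1, a mitochondrial membrane protein, 72.4, 73.4 and 72.3 CPM. Their CVs of 0.124% to 1.17% are below the 3.31% to 8.11% that counting error alone gives, and under TMM they were 5.87% to 7.40%, so their rank among the 649 such genes with a CV under 10% has no weight. VTN, CLU and C3 were even as well, and for them counting error is small.

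The highest library differed between gene groups. Over all 11658 genes, replicate 1 was the highest for 42.9%, replicate 2 for 36.4% and replicate 3 for 20.6% under total counts, and for 36.2%, 32.1% and 31.7% under TMM. For the immediate early genes the numbers highest in replicates 1, 2 and 3 were 2, 21 and 3 under TMM and 2, 21 and 3 under total counts. Replicate 2 was likewise the highest for most genes of amino acid breakdown, 8, 29 and 13 under TMM and 10, 32 and 8 under total counts, and of the growth hormone and IGF list, 5, 13 and 3 under TMM and 5, 14 and 2 under total counts. Among them were GPT2, TAT at 486, 950.3 and 336 CPM, IGFBP1, IGFBP2, and IER5, an immediate early gene, at 23.1, 67.1 and 30.6 CPM. Outside these lists KLF15, CEBPB (181, 365 and 231 CPM) and PCK1 (2598, 4790.2 and 2439 CPM) were highest in replicate 2 too. Most members of their own lists were not. For transcription factors the numbers were 12, 15 and 17 under TMM and 16, 17 and 11 under total counts. For glycolysis, gluconeogenesis and glycogen they were 6, 13 and 13 under TMM and 9, 14 and 9 under total counts.

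Other groups leaned to other libraries. Interferon-stimulated genes were highest in replicates 1, 2 and 3 for 13, 1 and 15 genes under TMM and 14, 1 and 14 under total counts, so that 1 member was highest in replicate 2. For heat shock and chaperone genes the numbers were 16, 1 and 14 under TMM and 20, 3 and 8 under total counts. Replicate 1 held the highest level of most m6A genes (19, 3 and 4 under TMM, 20, 3 and 3 under total counts), of cell cycle genes (19, 6 and 3 under TMM, 20, 7 and 1 under total counts) and of all 15 mitochondrial genes in the spread set. Replicate 3 was the highest for most fat synthesis genes only under TMM, 6, 4 and 22 against 11, 6 and 15 under total counts. The same holds for complement, 8, 4 and 15 under TMM and 11, 6 and 10 under total counts. Genes of a group are measured in the same 3 libraries and are not replicates, so these counts are a description with no test. Replicate 2 had the lowest depth and replicate 3 the largest share of its first gene, and the part of either in these patterns was not tested.

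**Figure D5:**
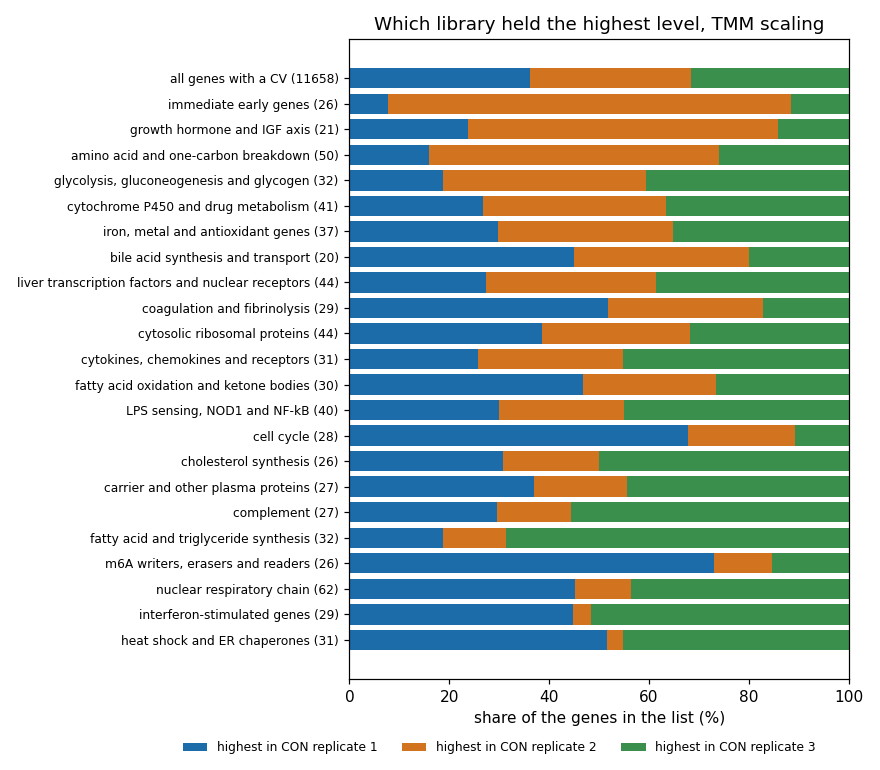
Share (%) of the genes of each group whose highest level, after TMM scaling, was in CON replicate 1, 2 or 3, for the 22 groups with at least 20 genes, with the number of genes in brackets and all 11658 genes in the top bar. Immediate early genes, the growth hormone and IGF list and amino acid breakdown have the largest replicate 2 parts, and interferon-stimulated and chaperone genes the smallest.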

How the data were processed

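Input RNA from liver was sequenced as paired with m6A immunoprecipitation, from polyadenylated and sonicated RNA with a directional kit. The authors deposited whole-number counts per gene with gene length and coordinates, printed here as that table gives them. Per the labels' processing notes, reads went through cutadapt 1.9.3 and HISAT2. Those notes list the builds galGal6 and hg38, neither of them a pig genome, and the build, counting program and strand setting behind the counts remain not given in the sources used here. The 3 CON input columns were used, 0 count columns were left unmapped, and LPS columns and immunoprecipitated libraries were not used here. CPM and TPM were computed from the counts and lengths with Python 3.11.15 (numpy 2.4.6, pandas 2.3.3, scipy 1.17.1), scaling factors and the biological coefficient of variation with edgeR 4.0.16 in R 4.3.3, checked against DESeq2 1.42.0 and on simulated counts. Figures used matplotlib 3.10.9. Spread was taken over genes of at least 1 TPM and 10 counts on average. With 1 group there is no comparison and no test. Wilson intervals (95%) and limits for 0 counts (3 counts) cover counting error only. Genes are named if among the 25 most abundant, the 5 most abundant or the widest (at least 5 TPM) of a list, the 15 widest or 10 steadiest with a symbol and at least 10 TPM, or genes the study follows; a few others are marked or serve as examples of a count. Items withheld from the text are not reported here. Members and lists were chosen with earlier results of these data known. Alternatives in scaling, filter, depth, length and replicates were tried, and the closing section gives their effect.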

Additional observations from a re-analysis of the deposited data

How the results depend on the processing

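Of all TPM, 50% was held by 13 genes, by 100 genes on the CPM scale, by 42 without the most abundant gene, and by 7 to 22 when 1 replicate was left out. The 10 most abundant genes took 48.8% of TPM, 26.6% of counts and, without the most abundant gene, 32.6% of TPM. The mitochondrial share was 2.02% of counts and 3.60% of TPM. The plasma protein lists took 15.7% of TPM, 23.3% of counts and 21.1% of TPM without the most abundant gene. Of the 48 single lists, the share moved by more than its SD between libraries in 36 as counts and in 43 without the 10 most abundant genes. Without the most abundant gene it moved in 32. Leaving out 1 of 3 replicates cannot shift a mean by its SD, so that alternative could not show a move of a list. The median CV was 24.6%, with 37.6% over genes of at least 1 count in any library, 21.6% at 10 TPM or more, and 17.1% to 21.8% with 1 replicate left out. Genes with a CV above 50% numbered 1038, with 8523 and 263 under these filters and 1034 to 1281 with 1 replicate left out. With 1 replicate left out a CV rests on 2 libraries, and its median tends to lie lower than over 3. The lower medians therefore do not show less spread. The biological coefficient of variation was 0.277, 0.30 with at least 1 count in any library, and 0.249 to 0.284 with 1 replicate left out. The share of genes highest in replicate 1 was 42.9%, 36.2% under TMM and 36.0% under RLE (relative log expression) factors from edgeR. For replicate 2 it was 36.4%, 32.1% and 32.6%, and for replicate 3 20.6%, 31.7% and 31.4%. The number of genes at 1 TPM moved by less than 1.5 times under each alternative tried, from 11210 to 13181. Leaving out the most abundant gene, and the alternatives for the plasma protein lists together, were chosen after seeing the data. Replicate 2 had the least depth, which limits low genes there. No paired analysis was possible because a single group was analysed.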
